A study of Saccharomyces cerevisiae with 16 samples.

Results

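The difference between 2 yeast strains in their response to the kinase inhibitor 3MBPP1 was measured by RNA sequencing. For each feature (a gene or noncoding RNA), the log2 ratio of condition B to condition A was taken in hrr25as cells and in WT cells, and the WT value was subtracted. Features entered if listed for both strains with a mean of at least 20 normalised reads in each, which left 5509 of the 6246 listed for both and of the 6846 listed for either. Just inside that minimum lay YNL146W, with a mean of 20.1 in hrr25as and a difference of -0.43. AMA1, with a mean of 19.96 in hrr25as and a difference of 1.23, lay just outside.

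Both strains of Saccharomyces cerevisiae carried his3Δ leu2Δ ura3Δ and a chromosomal HRR25 deletion marked with kanMX4. WT cells had unmodified HRR25 on the plasmid pRS316, which carries URA3, and hrr25as cells had hrr25-I82G on pRS315, which carries LEU2. Cells at an OD600 of 0.3 in YPD at 30°C were exposed to DMSO or 3MBPP1 for 1 hour, with 2 libraries in each of the 4 groups. Sample titles and characteristics name 3MBPP1, whereas the treatment protocol names CMK; the groups follow the titles, and no dose is given. Whether replicates were grown separately is not labelled, so the spread behind each p-value may be technical. The deposited tables call the treatments condition A and condition B without saying which is DMSO. Each ratio is therefore B over A, and the difference takes A to be the same treatment in both tables.

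HRR25 itself had 117 to 166 RPM (reads per 1000000 counted) in the WT libraries and 123 to 166 RPM in the hrr25as libraries, and its difference was -0.14 (limma adjusted p = 0.916). URA3 had 91.0 to 120 RPM in WT and was not listed for hrr25as. LYS2, at 45.6 to 51.2 RPM, and MET17, at 271 to 459, were listed for WT but not for hrr25as. LEU2 had 38.6 to 54.4 RPM in WT libraries, labelled leu2Δ, and 71.5 to 99.4 in hrr25as libraries. HIS3 had 15.5 to 26.6 RPM in WT and 16.3 to 41.6 in hrr25as libraries, although both strains are labelled his3Δ. Small nucleolar RNA genes, described below, took 22.9% to 28.1% of counted reads in WT libraries and 4.56% to 5.58% in hrr25as libraries. RPM values of other genes therefore do not compare directly between strains. The listing of LYS2 and MET17 for WT alone goes beyond what the labels of the kinase allele and plasmid give. Effects of the allele, the plasmid marker and the loci above cannot be told apart. Depth was 10505164 to 13998631 counted reads per library in WT and 4275991 to 6592340 in hrr25as.

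Hrr25 is the budding yeast member of the casein kinase 1 delta and epsilon class, protein kinases that act in ribosome assembly, vesicle traffic, DNA repair and chromosome segregation in meiosis. Replacing the bulky gatekeeper residue of a kinase with glycine opens a pocket for bulky analogues of the inhibitor PP1, such as 3MBPP1, which most unmodified kinases bind poorly. A response that differs between cells with and without this substitution is the comparison the design sets up. The same drug in cells with unmodified kinase serves as the control for its other actions.

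Several of the largest differences lay at small nucleolar RNAs, short RNAs that guide chemical modification of ribosomal RNA. Box C/D RNAs, which guide methylation of the ribose, are held between a box C near the 5′ end and a box D near the 3′ end. The RNAs below, read 5′ to 3′ from the R64 reference assembly, are the 4 box C/D RNAs with the smallest p and SNR56, which was added after its values were seen. Capitals mark the box C letters TGATGA and the terminal box D letters CTGA, written as DNA.
SNR13: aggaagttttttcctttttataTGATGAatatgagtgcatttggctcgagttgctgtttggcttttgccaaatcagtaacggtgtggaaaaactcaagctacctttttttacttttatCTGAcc
SNR71: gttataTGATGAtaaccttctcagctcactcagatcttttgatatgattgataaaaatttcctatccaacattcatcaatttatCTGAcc
SNR47: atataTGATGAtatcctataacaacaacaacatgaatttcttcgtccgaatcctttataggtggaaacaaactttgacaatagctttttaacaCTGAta
SNR66: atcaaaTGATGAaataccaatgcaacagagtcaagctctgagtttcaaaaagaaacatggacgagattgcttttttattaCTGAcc
SNR56: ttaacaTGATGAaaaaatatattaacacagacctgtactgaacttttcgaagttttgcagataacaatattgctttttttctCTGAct

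SNR13 lies at chrIV:1402919-1403042 on the + strand and SNR71 at chrVIII:411228-411317 on the + strand. SNR47 lies at chrIV:541602-541700 on the - strand, SNR66 at chrXIV:586090-586175 on the + strand and SNR56 at chrII:88190-88277 on the + strand. Their lengths were 124, 90, 99, 86 and 88 bases in the order printed.

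Among protein-coding genes, the lower differences included enzymes of purine synthesis, of glycine and one-carbon metabolism and of phosphate uptake. Promoter windows of such genes follow, from 300 to 101 bases upstream of the start codon, in the direction of transcription on the R64 assembly. They are shown because these pathways have well-known activators. Each window printed holds the letters marked in it, and shares over the whole lists are given below. Windows of HXT3 and HXT1, not printed, were scanned for other letters (CGGANNA, N for any base), with 0 and 1 matches. Capitals mark TGACTC on either strand, the core letters bound by the activators Gcn4 and Bas1, or in the PHO genes CACGTG, letters bound by Pho4.
ADE17: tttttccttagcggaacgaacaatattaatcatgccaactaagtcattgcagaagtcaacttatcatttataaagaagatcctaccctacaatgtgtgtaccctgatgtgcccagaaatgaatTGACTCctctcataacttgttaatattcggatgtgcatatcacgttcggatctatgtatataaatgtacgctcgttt
ADE1: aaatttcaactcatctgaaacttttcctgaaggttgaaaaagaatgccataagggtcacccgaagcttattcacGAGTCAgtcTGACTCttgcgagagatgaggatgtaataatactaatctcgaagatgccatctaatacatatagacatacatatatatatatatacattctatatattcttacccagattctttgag
SHM2: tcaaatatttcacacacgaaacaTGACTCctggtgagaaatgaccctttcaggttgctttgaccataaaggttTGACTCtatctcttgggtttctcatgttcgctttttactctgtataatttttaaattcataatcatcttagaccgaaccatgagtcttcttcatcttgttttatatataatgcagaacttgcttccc
GCV1: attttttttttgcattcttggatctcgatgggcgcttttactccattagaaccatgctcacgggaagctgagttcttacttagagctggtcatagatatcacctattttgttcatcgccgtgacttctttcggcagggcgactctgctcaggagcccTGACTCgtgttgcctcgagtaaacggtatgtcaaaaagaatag
GCV2: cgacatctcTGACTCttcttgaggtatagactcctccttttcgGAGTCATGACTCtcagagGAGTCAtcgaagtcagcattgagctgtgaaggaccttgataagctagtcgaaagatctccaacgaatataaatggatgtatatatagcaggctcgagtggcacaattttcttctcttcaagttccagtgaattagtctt
PHO5: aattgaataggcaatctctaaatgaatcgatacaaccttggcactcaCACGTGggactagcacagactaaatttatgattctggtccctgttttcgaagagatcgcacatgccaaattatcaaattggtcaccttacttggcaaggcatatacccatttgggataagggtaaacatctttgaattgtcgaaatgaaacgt
PHO12: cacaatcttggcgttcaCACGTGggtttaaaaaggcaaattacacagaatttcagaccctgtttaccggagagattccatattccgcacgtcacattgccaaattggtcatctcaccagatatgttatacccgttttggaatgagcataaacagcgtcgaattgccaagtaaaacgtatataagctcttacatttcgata

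The windows lie at chrXIII:509381-509580 on the - strand for ADE17, chrI:169075-169274 on the + strand for ADE1 and chrXII:259502-259701 on the - strand for SHM2. Those of the glycine cleavage genes lie at chrIV:485466-485665 on the - strand for GCV1 and chrXIII:637200-637399 on the + strand for GCV2. The phosphatase windows lie at chrII:431052-431251 on the - strand for PHO5 and chrVIII:551799-551998 on the + strand for PHO12.

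The difference between strains was tested for all 5509 features with the strain-by-condition interaction in limma, with Benjamini-Hochberg adjustment. It called 5 features at an adjusted p under 0.05, or 0.0908%: 2 higher in hrr25as (0.0363%) and 3 lower (0.0545%). A z test on the deposited log2 fold changes called 25 (0.454%). With libraries scaled by total reads instead, 13 were called higher and 3 lower. Removing either WT library of either condition, or the hrr25as condition A library with the smaller size factor, left 0 calls; removing the hrr25as condition B library with the larger size factor gave 24. At an unadjusted p under 0.05 there were 582 features, 10.6% of those tested, of which 242 had a higher (4.39%) and 340 a lower (6.17%) difference. The median difference of all features was -0.05 on the log2 scale, with quartiles of -0.29 and 0.20. All 4 ratios of hrr25as (each condition B library over each condition A library) lay above all 4 of WT at 10.5% of features, and below them at 14.9%. Removal of single libraries is given below as without the smaller or larger library of a group, by size factor, with limma medians. These shares are the background for the counts that follow, and a member with only an unadjusted p under 0.05 was not called.

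**Figure D1:**
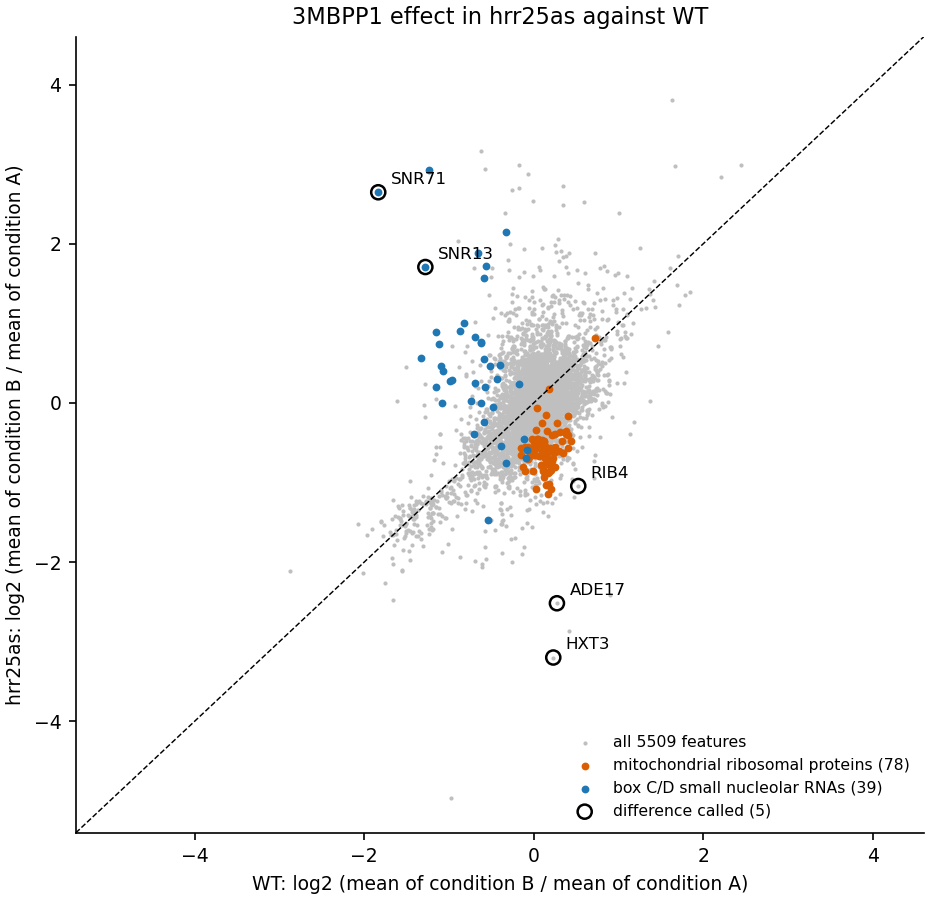
Log2 ratio of condition B to condition A in WT (x axis) and hrr25as (y axis) for all 5509 features. The dashed line marks equal effects, and circles mark the 5 called features. Box C/D small nucleolar RNAs are blue and lie mostly above the line. Mitochondrial ribosomal protein genes are orange, and 77 of 78 lie below the line.

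SNR13 and SNR71 were the features called higher, and in both the strains moved in opposite directions. SNR13 guides methylation of the large-subunit ribosomal RNA. It had 371 and 328 normalised reads in the WT condition A libraries and 137 and 151 in condition B, against 62.1 and 63.4 in hrr25as condition A and 210 and 199 in condition B. Condition B was thus below A in WT and above it in hrr25as, with no overlap between conditions in either strain. The difference was 2.99, and the limma estimate was 2.95 ± 0.27 (SE; limma adjusted p = 0.0122).

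SNR71, also a methylation guide, had 188 and 131 normalised reads in WT condition A and 58.6 and 31.2 in condition B. In hrr25as it had 14.4 and 18.0 in condition A and 98.8 and 104 in condition B. Again the conditions did not overlap in either strain and their order was reversed between strains. The difference was 4.48, the highest of all features tested, with a limma estimate of 4.50 ± 0.51 (SE; limma adjusted p = 0.0190). Both hrr25as condition A libraries lay below the read minimum, which applied to the mean over all libraries of a strain. The size of the difference therefore rests on few reads in that group. In the authors' deposited table, the adjusted p of the effect in WT was 1.33e-05 for SNR13 and 0.00227 for SNR71, and in hrr25as 0.00155 and 0.000109.

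HXT3, ADE17 and RIB4 were called lower, and each fell in hrr25as with little movement in WT or some in the other direction. HXT3, a low-affinity glucose transporter on chromosome IV, had 3403 and 4120 normalised reads in WT condition A and 4019 and 4810 in condition B. In hrr25as it went from 5442 and 4114 in condition A to 658 and 384 in condition B. The WT conditions overlapped and those of hrr25as did not. The difference was -3.43 (limma estimate -3.49 ± 0.40, SE; limma adjusted p = 0.0190). HXT genes are similar in sequence, and reads shared between them could be split by the counting.

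ADE17 encodes an enzyme for the last steps of purine synthesis that yield inosine monophosphate. Its reads in WT were 600 and 660 in condition A and 706 and 817 in condition B. In hrr25as they were 2854 and 2787 in condition A and 375 and 611 in condition B, so condition B was far below A there and slightly above it in WT. The difference was -2.79 (limma estimate -2.83 ± 0.32, SE; limma adjusted p = 0.0190). Its paralogue ADE16, looked up after these values were seen, had a difference of -0.45.

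RIB4 encodes lumazine synthase of the riboflavin pathway. It had 1257 and 1114 normalised reads in WT condition A and 1755 and 1658 in condition B, against 1162 and 1155 in hrr25as condition A and 607 and 517 in condition B. The strains moved in opposite directions without overlap of conditions. The difference was -1.57 (limma estimate -1.58 ± 0.21, SE; limma adjusted p = 0.0461). The other 9 of the 10 riboflavin and FMN genes had differences of -0.39 (FAD1) to 0.22 (FLX1), and none of these reached an unadjusted p of 0.05.

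In the authors' deposited table, the adjusted p of the effect in hrr25as was 1.91e-11 for HXT3 and for ADE17 and 0.0209 for RIB4, and in WT it was 0.684, 0.589 and 0.0526. Each of the 5 calls of the difference depended on single libraries. SNR13, SNR71, ADE17 and HXT3 were each called in 3 of the 8 fits that left out 1 library and RIB4 in 2, while the sign of the difference held in all 8. The lowest and highest adjusted p of SNR13 over these fits were 0.00957 and 0.126.

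**Figure D2:**
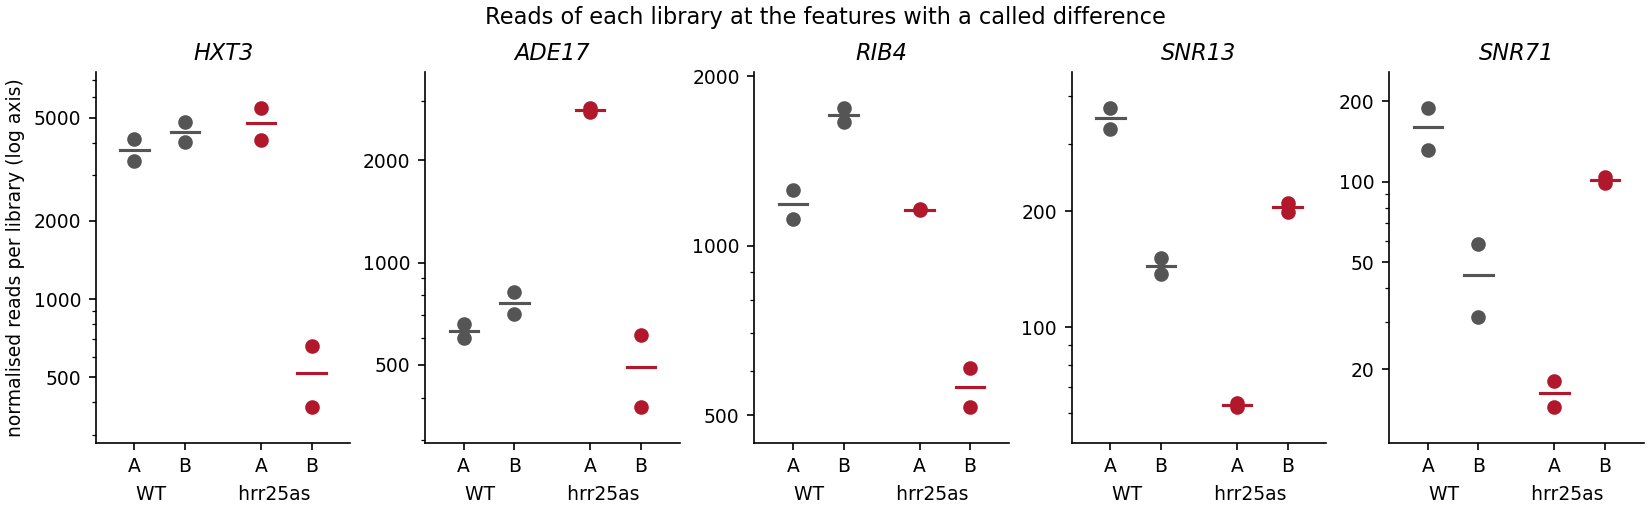
Normalised reads of each library (log axis; each panel has its own scale) at the 5 called features. Each point is a library, bars are means, and grey is WT and red hrr25as; strains were normalised separately, so conditions compare within a strain only. HXT3, ADE17 and RIB4 drop from A to B in hrr25as, and SNR13 and SNR71 go down in WT and up in hrr25as.

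Box C/D small nucleolar RNAs as a group had the highest median of the lists with at least 10 tested members. Of 47 on the list, 39 were tested, and 33 of these had a difference above 0, against 44.7% of all features. The median difference was 1.25, made of a median log2 effect of -0.62 in WT and 0.40 in hrr25as. At an unadjusted p under 0.05, 18 were higher and 1 was lower, and in 19 all 4 hrr25as ratios lay above those of WT. The median was 0.86 to 1.57 when each library was left out in turn.

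SNR66 had 5800 and 4701 normalised reads in WT condition A and 2742 and 3898 in condition B, and 50.5 and 79.7 in hrr25as condition A and 222 and 257 in condition B. Its difference was 2.54 (limma adjusted p = 0.0704). SNR47 had 379 and 278 in WT condition A, 194 and 251 in condition B, 33.2 and 51.4 in hrr25as condition A and 142 and 137 in condition B, with a difference of 2.29 (limma adjusted p = 0.0900). Both had higher condition B than A libraries in hrr25as and lower ones in WT, without overlap in either. SNR56 differed by 4.16 (limma adjusted p = 0.126), but its WT condition B libraries, at 95.6 and 246, were far apart. Of the 6 members with a difference below 0, SNR24, at -0.93, was the one with an unadjusted p under 0.05; it lies within ASC1, itself at -0.81.

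Box H/ACA small nucleolar RNAs, which guide pseudouridylation, had a smaller median difference of 0.32 over 28 tested members, which turned to -0.01 without the smaller WT condition A library and was 0.66 without the larger. It was 0.50 and 0.13 without the smaller and the larger hrr25as condition A library and 0.19 without the smaller condition B library. At an unadjusted p under 0.05, 7 were higher and none lower. SNR11 had the highest difference of them at 2.39 (limma adjusted p = 0.0840), with 28594 and 18625 normalised reads in WT condition A and 15387 and 13715 in B, and 492 and 412 in hrr25as condition A and 1767 and 1156 in B. Other named members were SNR49 at 1.54 and SNR3 and SNR42 at 1.10 each.

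By length, a split made after the values were seen, the 22 tested small nucleolar RNAs of up to 100 bases had a median difference of 1.43. The 26 of 101 to 200 bases had 0.76 and the 19 longer than 200 bases -0.01. Of the longest class 16 were box H/ACA, so length and class overlap; among box C/D RNAs alone the medians were 1.43, 1.11 and -0.15 for 22, 14 and 3 members. Among box C/D RNAs, the 5 inside a protein-coding host gene on the same strand had a median of 1.26 and the other 34 had 1.19. Some of the 34, such as SNR74 to SNR77, lie next to one another on the same strand.

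The libraries of the strains differed in how much of such RNA they held. Small nucleolar RNA genes took 22.9% to 28.1% of counted reads in WT libraries and 4.56% to 5.58% in hrr25as libraries. Spliceosomal RNA genes took 7.36% to 10.4% and 0.580% to 0.810%. The part of this composition in the difference at small RNAs was not tested.

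**Figure D3:**
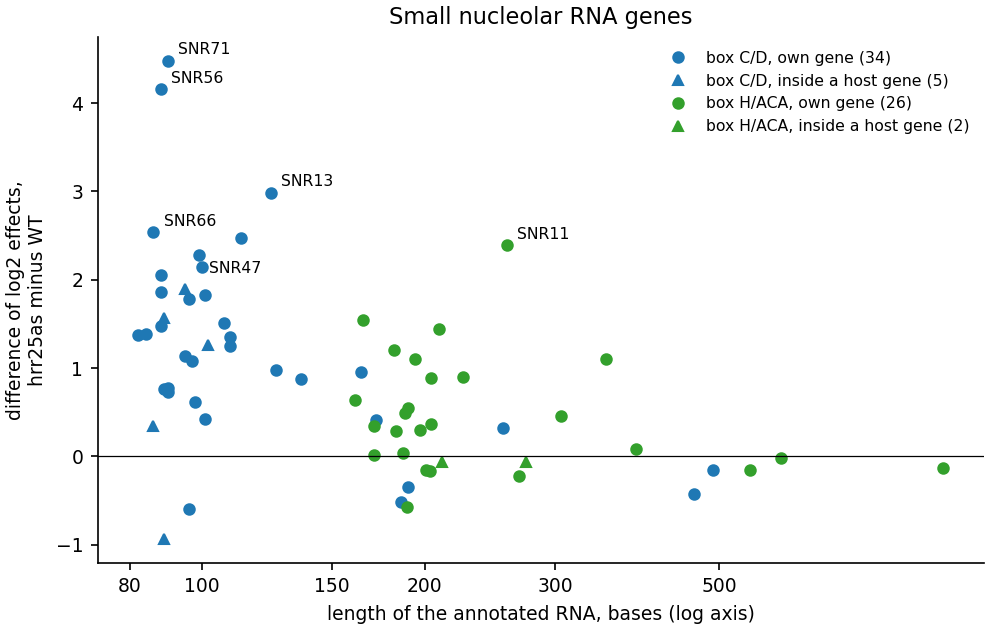
Difference of log2 effects against the length of the annotated RNA (log axis) for the 67 small nucleolar RNA genes tested. Blue marks box C/D and green box H/ACA. Triangles are RNAs inside a protein-coding host gene and circles, labelled own gene, are all others. Differences above 1.5 are mostly those of short box C/D RNAs, while SNR11 is a longer exception.

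Transcription of small nucleolar RNA genes outside host genes is ended by the Nrd1, Nab3 and Sen1 termination complex, which recognises RNA as it is transcribed. The part of this complex in the differences above was not tested. NRD1, the RNA-binding subunit, had 509 and 545 normalised reads in WT condition A and 544 and 516 in condition B, against 921 and 841 in hrr25as condition A and 2104 and 1895 in condition B. The WT conditions overlapped and condition B of hrr25as stood above A, for a difference of 1.18 (limma adjusted p = 0.0840). HRP1, a subunit of the cleavage factor for messenger RNA ends, had 1148 and 1123 in WT condition A, 1172 and 1156 in condition B, 1166 and 1056 in hrr25as condition A and 491 and 661 in condition B, a difference of -0.98 (limma adjusted p = 0.182). Of the 37 polymerase II tail kinase, phosphatase and termination genes, 1 (NRD1) was higher and 1 (HRP1) lower at an unadjusted p under 0.05. Over all features tested the shares were 4.39% and 6.17%, so these counts do not exceed the background. The list median of 0.04 took either sign when libraries were left out.

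The next gene downstream on the same strand, within 1000 bases of a small nucleolar RNA, was tested in 32 cases. The median difference was -0.01, between -0.14 and 0.10 when each library was left out in turn, with 3 higher and 2 lower at an unadjusted p under 0.05. YDR042C, an open reading frame of unknown function 398 bases past SNR47, had 58.6 and 68.7 normalised reads in WT condition A and 70.5 and 56.5 in condition B. In hrr25as it had 33.2 and 43.7 in condition A and 223 and 224 in condition B, a difference of 2.54 (limma adjusted p = 0.0530). TRS31, 279 bases past SNR13, had a difference of -0.00. DFR1, which encodes dihydrofolate reductase and lies 309 bases past SNR17A, differed by -1.48 (limma adjusted p = 0.145).

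Mitochondrial ribosomal protein genes, which encode the machinery that translates mitochondrial messenger RNA, had the lowest median of the lists with at least 10 tested members. Of 79 genes 78 were tested, and 77 of these had a difference below 0, against 55.3% of all features. The median difference was -0.74, with a median log2 effect of 0.14 in WT and -0.60 in hrr25as, and 53 were lower and none higher at an unadjusted p under 0.05. In 67 genes all 4 hrr25as ratios lay below those of WT. The median was -0.81 to -0.67 when each library was left out in turn. None was called by limma after adjustment.

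MRPL17, of the large subunit, had 947 and 941 normalised reads in WT condition A and 917 and 1013 in condition B, against 283 and 272 in hrr25as condition A and 130 and 131 in condition B. Its difference was -1.12 (limma adjusted p = 0.105). MRPS9, of the small subunit, had 1073 and 1043 in WT condition A, 1124 and 1183 in condition B, 362 and 399 in hrr25as condition A and 199 in both libraries of condition B, a difference of -1.06 (limma adjusted p = 0.101). In both genes the hrr25as libraries of condition B lay below those of A and the WT libraries stayed within a narrow range. MRPL31 differed by -1.20 and MRP51 by -0.92. The gene with a difference above 0 was MRP8, at 0.09. Cytosolic ribosomal protein genes had a median of -0.05, with -1.36 in WT and -1.41 in hrr25as, and between -0.35 and 0.18 when each library was left out in turn.

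Genes for the import and folding of proteins in mitochondria had a median difference of -0.66, and 23 of 24 lay below 0. At an unadjusted p under 0.05, 11 were lower and none higher. SSC1, the Hsp70 that pulls proteins into the matrix, had 4665 and 5462 normalised reads in WT condition A and 4209 and 5753 in condition B, and 6417 and 7563 in hrr25as condition A and 2440 and 2308 in condition B. The WT conditions overlapped, condition B of hrr25as was far below A, and the difference was -1.53 (limma adjusted p = 0.105). MGE1, its nucleotide exchange factor, differed by -1.11, and the outer-membrane receptors TOM20 and TOM22 by -1.26 and -1.07. HSP60, the matrix chaperonin, differed by -1.43 (limma adjusted p = 0.189).

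Respiratory chain and citric acid cycle genes did not share this direction, with a median of 0.15 over 47 genes that ranged from -0.02, without the larger hrr25as condition A library, to 0.27, without the larger WT condition B library. ACO1, the aconitase, stood apart with 5077 and 4946 normalised reads in WT condition A and 4445 and 5790 in condition B, and 9996 and 7776 in hrr25as condition A and 3800 and 3566 in condition B. Its difference was -1.30 (limma adjusted p = 0.154). At an unadjusted p under 0.05, 2 of the 47 genes were higher and 1 was lower, against 4.39% and 6.17% of all features. The 2 higher, CYT1 and QCR10, both subunits of complex III, differed by 0.45 and 0.57 (limma adjusted p = 0.448 and 0.433).

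Genes of the mitotic CLB2 cluster, which are transcribed as cells enter mitosis, had a median difference of -0.56. In bulk RNA, fewer cells at one stage of the cell cycle and less RNA per cell cannot be told apart. Of 28 genes 27 lay below 0, and 14 were lower and none higher at an unadjusted p under 0.05. HOF1, which acts in cytokinesis, had 518 and 549 normalised reads in WT condition A and 547 and 573 in condition B, against 361 and 256 in hrr25as condition A and 143 and 119 in condition B. The WT conditions nearly coincided and the hrr25as conditions did not overlap, for a difference of -1.31 (limma adjusted p = 0.151). PMP3, a small membrane protein, differed by -1.11, KIN3, a protein kinase, by -0.88, and BUD4, which marks the bud site, by -0.78.

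Histone genes had a median difference of -0.65, and all 10 lay below 0. At an unadjusted p under 0.05, 5 were lower and none higher. HTA1, for histone H2A, had 4576 and 4000 normalised reads in WT condition A and 7035 and 7016 in condition B, against 1950 and 1905 in hrr25as condition A and 1067 and 1253 in condition B. Condition B was above A in WT and below it in hrr25as, for a difference of -1.44 (limma adjusted p = 0.0713). HTB2, HHF1 and HHT2, for histones H2B, H4 and H3, differed by -0.94, -0.84 and -0.70. Most histone genes exist as near-identical pairs, whose reads could be split by the counting.

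The 31 G1/S and DNA replication genes had a median of 0.06, a sign that changed under other settings, but 4 were higher at an unadjusted p under 0.05 and none lower. The G1 cyclin genes PCL1 and CLN1 differed by 1.49 (limma adjusted p = 0.189) and 1.02 (limma adjusted p = 0.257). PCL1 had 781 and 695 normalised reads in WT condition A and 989 and 825 in condition B, and 394 and 434 in hrr25as condition A and 1049 and 1809 in condition B. Condition B was above A in both strains, and the gap was wider in hrr25as.

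**Figure D4:**
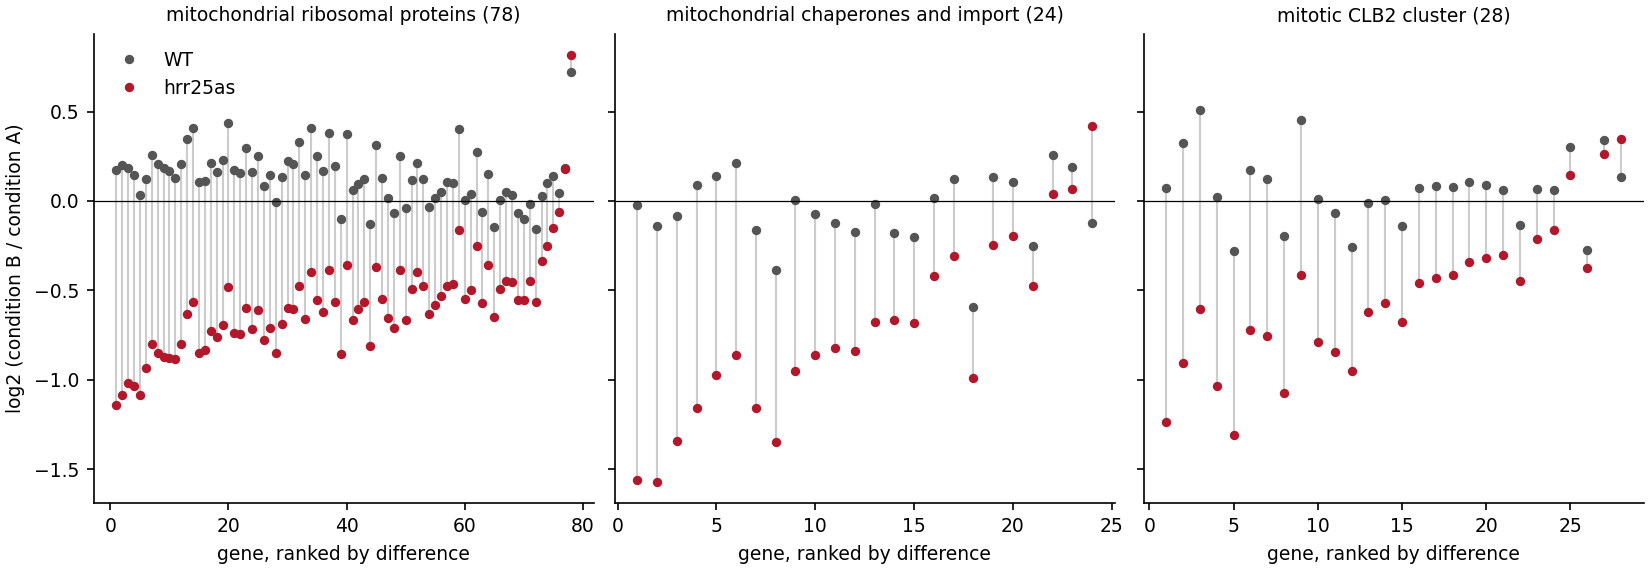
Log2 ratio of condition B to condition A for each gene of 3 lists, ranked by the difference, with WT in grey and hrr25as in red and a line joining the strains. WT values scatter around 0 and hrr25as values lie lower for 77 of 78 mitochondrial ribosomal protein genes, 23 of 24 mitochondrial chaperone and import genes and 27 of 28 CLB2 cluster genes.

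Purine synthesis genes had a median difference of -0.46 over 20 genes, with 18 below 0. At an unadjusted p under 0.05, 7 were lower, ADE17 among them, and none higher. The median was -0.16 without the smaller hrr25as condition A library and -0.23 without the larger WT condition B library, and -0.67 and -0.72 without the larger hrr25as condition A and the smaller condition B library. ADE1, of an intermediate step, had 1181 and 1099 normalised reads in WT condition A and 1305 and 1529 in condition B, against 1723 and 1221 in hrr25as condition A and 788 and 547 in condition B. The strains moved in opposite directions, for a difference of -1.46 (limma adjusted p = 0.145). ADE6 and ADE8, of earlier steps, differed by -1.12 and -1.03.

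The glycine cleavage system and its partners supply one-carbon units to purines. Of 17 one-carbon and glycine genes, 13 lay below 0, with a median of -0.50, and 6 were lower and 1 higher at an unadjusted p under 0.05. The median was -0.33 without either hrr25as condition A library and -0.31 without the smaller condition B library. GCV1 had 1048 and 1030 normalised reads in WT condition A and 2096 and 2482 in condition B, against 531 and 664 in hrr25as condition A and 425 and 483 in condition B. It was thus higher in condition B in WT and was slightly lower in hrr25as, for a difference of -1.54 (limma adjusted p = 0.0713). SHM2, the cytosolic serine hydroxymethyltransferase, differed by -1.70 and GCV2, the glycine decarboxylase, by -1.65. SER3, of serine synthesis, went the other way with a difference of 1.43 (limma adjusted p = 0.126), from 387 and 284 in hrr25as condition A to 817 and 620 in condition B and from 613 and 740 to 508 and 565 in WT.

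Amino acid synthesis genes under Gcn4, the activator of the general amino acid control, had a median of -0.36 over 49 genes, 41 below 0. Of these 8 were lower and 1 higher at an unadjusted p under 0.05. The median was -0.14 and -0.58 without the smaller and the larger hrr25as condition A library, and -0.54 and -0.21 without the smaller and the larger condition B library. HIS5 and HIS4, of histidine synthesis, differed by -1.18 and -1.15, and ILV3 and ILV5, of branched-chain synthesis, by -0.97 and -0.94. The letters TGACTC, on either strand, were found in the printed window of 5.85% of all 6001 protein-coding genes, in 10 of 20 purine genes, 10 of 17 one-carbon genes and 31 of 49 genes of the Gcn4 list. The match is a description of these windows only.

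Phosphate genes, which scavenge phosphate under the activator Pho4, had a median of -0.40 over 25 genes, with 8 lower and 1 higher at an unadjusted p under 0.05. PHO5, the main secreted acid phosphatase, had 1307 and 1216 normalised reads in WT condition A and 773 and 874 in condition B, against 1712 and 1421 in hrr25as condition A and 334 and 436 in condition B. Condition B was below A in both strains and the gap was wider in hrr25as, for a difference of -1.41 (limma adjusted p = 0.0878). PHO12, a closely related phosphatase gene with a near-identical copy, between which reads could be split, differed by -1.76. PHO89, a phosphate transporter, differed by -1.14, and PHM6, a gene of unknown function, by -0.99. CACGTG lay in the window of 3.02% of all genes and of 10 of the 25 phosphate genes. Because the list holds genes under Pho4, this match only describes the windows.

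Pyrimidine genes had a median of -0.10, which was 0.02 without the smaller and -0.27 without the larger hrr25as condition A library, with 3 of 20 lower and none higher at an unadjusted p under 0.05. URA1 and URA4, both of uracil synthesis, differed by -1.40 (limma adjusted p = 0.0878) and -1.27 (limma adjusted p = 0.0704). URA4 had 664 and 603 normalised reads in WT condition A, 600 and 618 in condition B, 1243 and 1200 in hrr25as condition A and 472 and 499 in condition B. Only hrr25as showed a gap between conditions. WT cells carried URA3 on their plasmid, and URA3 was not listed for hrr25as. The part of the uracil marker in these differences was not tested.

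**Figure D5:**
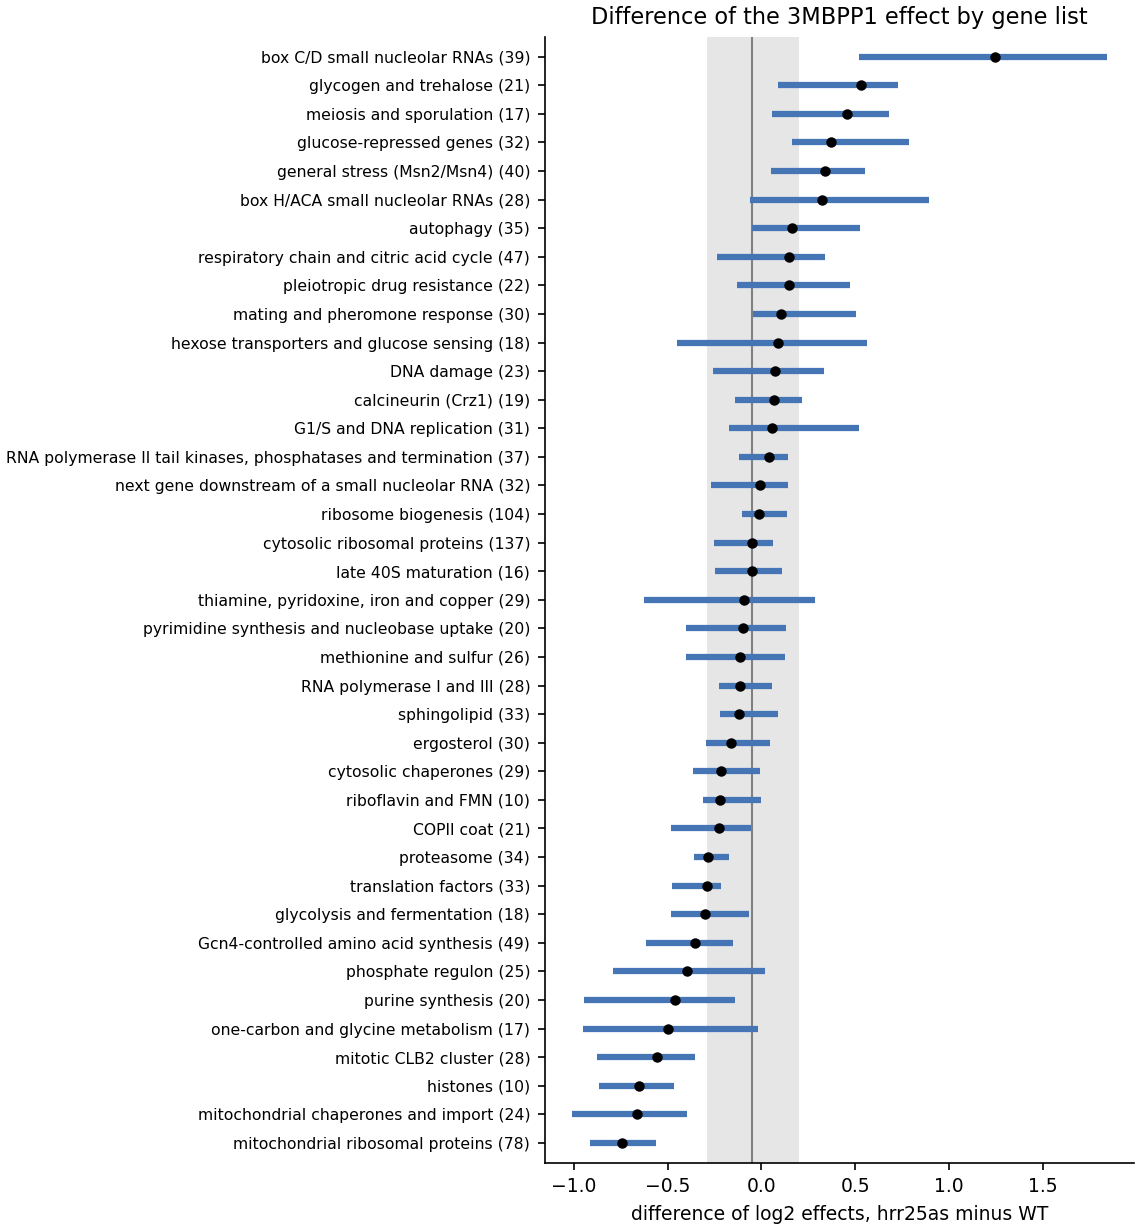
Median difference of log2 effects (dot) and quartiles (bar) for each gene list with at least 10 tested members, the number tested in brackets. The grey band spans the quartiles of all 5509 features, -0.29 to 0.20, and the line marks their median of -0.05; box C/D small nucleolar RNAs lie highest and mitochondrial ribosomal proteins lowest.

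Hexose transporter and glucose sensing genes differed in both directions, and their median of 0.09 ranged from -0.18, without the smaller hrr25as condition B library, to 0.39, without the smaller WT condition A library. Besides HXT3, HXT1, the other low-affinity transporter, had 821 and 832 normalised reads in WT condition A and 344 and 500 in condition B, against 313 and 103 in hrr25as condition A and 9.57 and 3.78 in condition B. It was lower in condition B in both strains, by much more in hrr25as. The difference was -3.99, the lowest of all features tested, and did not pass (limma adjusted p = 0.151). Both hrr25as condition B libraries lay below the read minimum, and the condition A libraries were far apart. The size of the difference therefore rests on few reads. In the authors' deposited table, the adjusted p of the effect in hrr25as was 0.130. HXT7, a high-affinity transporter, had 40.2 and 67.0 in WT condition A and 43.0 and 118 in condition B, and 41.9 and 37.7 in hrr25as condition A and 228 in both libraries of condition B. Its difference was 1.93 (limma adjusted p = 0.291), and HXT6 is a near-identical gene, so reads of the pair could be split by the counting. MTH1, which with the repressor Rgt1 holds HXT genes down, differed by 0.91.

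Genes repressed by glucose had a median of 0.37 over 32 tested of 40, with 7 higher and 2 lower at an unadjusted p under 0.05. ADR1, an activator of genes for growth without glucose, had 459 and 484 normalised reads in WT condition A and 492 and 570 in condition B, against 625 and 867 in hrr25as condition A and 1775 and 1671 in condition B. The WT conditions lay close together and those of hrr25as were far apart, for a difference of 1.03 (limma adjusted p = 0.194). GUT2, of glycerol use, differed by 0.91 and the maltose transporter gene MAL11 by 1.03, while MDH2, of gluconeogenesis, differed by -0.76.

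Glycogen and trehalose genes had a median of 0.53 over 21 genes, with 6 higher and 1 lower at an unadjusted p under 0.05. The median was 0.24 without the larger WT condition A library and 0.31 without the smaller WT condition B library. GAC1, a subunit that directs protein phosphatase 1 to glycogen synthase, had 222 and 323 normalised reads in WT condition A and 286 and 408 in condition B, against 43.3 and 34.3 in hrr25as condition A and 201 and 314 in condition B. Only in hrr25as did the conditions stand apart, for a difference of 2.38 (limma adjusted p = 0.145). GIP2, a related subunit, differed by 1.00 and TSL1, of trehalose synthase, by 0.81. PGM1 went the other way, with a difference of -0.73.

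General stress genes under Msn2 and Msn4 had a median of 0.34 over 40 tested of 42, with 5 higher and none lower at an unadjusted p under 0.05. The median was 0.05 without the smaller WT condition B library and 0.10 without the larger WT condition A library. GRE1 had 77.0 and 60.1 normalised reads in WT condition A and 72.9 and 101 in condition B, against 23.1 and 15.4 in hrr25as condition A and 86.1 and 131 in condition B. Its difference was 2.15 (limma adjusted p = 0.182). The hrr25as condition A library at 15.4 lay below the read minimum, so the size of this difference rests on few reads in that group. XBP1, a repressor of transcription made under stress and in quiescence, differed by 1.59 and USV1, a zinc-finger protein, by 1.23. The median log2 effect of the list was above 0 in both strains, at 0.57 in WT and 0.88 in hrr25as. AGGGG, letters bound by Msn2 and Msn4, lay in the window of 16.3% of all genes and of 30 of 39 protein-coding members of the list. The list itself holds genes under Msn2 and Msn4, so this match too only describes the windows.

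Of 34 meiosis and sporulation genes, 17 had enough reads to be tested. Their median was 0.45, with 3 higher and none lower at an unadjusted p under 0.05. It was 0.06 without the larger hrr25as condition B library, 0.15 without the smaller hrr25as condition A library and 0.07 over members with a mean of at least 100. REC104, needed for meiotic recombination, had 48.3 and 95.3 normalised reads in WT condition A and 53.8 and 66.7 in condition B, against 30.3 and 22.3 in hrr25as condition A and 188 and 148 in condition B. Its difference was 2.93 (limma adjusted p = 0.100). REC104 lies 1589 bases past SNR71 on the same strand. That is beyond the distance limit of the list of next genes above, so REC104 is not counted there. The pair was named with earlier results of these data known, and the median of the counted next genes was -0.01. A link between SNR71 and REC104 was not tested. NDT80, the activator of middle meiotic genes, differed by 1.35.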

How the data were processed

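RNA of 8 libraries (WT and hrr25as, DMSO and 3MBPP1) was depleted of ribosomal RNA and read as 100 bp single ends, per the labels' protocols. Per the submitters' processing notes, CASAVA 1.8.2, STAR 2.3.0, HTSeq 0.6.0 and sacCer3 were used, while no source used here gives the strand setting of the counting, so reads of overlapping antisense genes cannot be told apart. Per the file headers, the authors deposited a mean signal of normalised reads per condition, its ratio as a fold change, the log2 of that ratio, and a p-value with its adjusted form from a DESeq comparison. The fold change was checked to be condition B over condition A in every row.

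Whole reads per library were recovered from the condition means and the size factors they imply, for 99.96% and 99.97% of WT means of conditions A and B and 100% of those of hrr25as. The median-ratio size factors recomputed from these reads equalled those implied. Normalised reads are recovered reads over size factors, and libraries of a group are given in the order of smaller and larger size factor. The difference was fitted with limma 3.58.1 (R 4.3.3) with voom weights, adjusted by Benjamini-Hochberg. The alternative z test compared the deposited log2 fold changes of the strains, with errors implied by their p-values. The fit was tested on simulated data.

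Identifiers were matched to R64 for 5978 of 6834 WT and 5765 of 6258 hrr25as features. The members and 42 gene lists were chosen with earlier results of these data known. Named genes are all called features, up to 4 members per list with the smallest p, and strain markers. Others, such as HSP60, MRP8, FLX1, RPS9B and TRS31, were picked after their values were seen. YNL146W and AMA1 are named to show the read minimum. Shares of reads have 95% Wilson intervals, such as 28.12% to 28.17% around 28.14%, for counting error only. The CMK tables were not used here.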

Additional observations from a re-analysis of the deposited data

Results flagged for a closer look

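The effect of 3MBPP1 differed between the strains at 5 features by the limma interaction test itself, adjusted over 5509 features. The differences, hrr25as minus WT on the log2 scale, were 4.48 for SNR71, 2.99 for SNR13, -3.43 for HXT3, -2.79 for ADE17 and -1.57 for RIB4. Condition B over A was above 1 in one strain and below 1 in the other at all 5. In WT, however, the authors' deposited adjusted p was 0.684 for HXT3, 0.589 for ADE17 and 0.0526 for RIB4, so the WT direction is uncertain there. Each call also depended on single libraries, as described above.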

How the results depend on the processing

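The count of 5 called features became 25 with the z test on the deposited log2 fold changes, which takes their implied errors as known. It became 16 with total reads as the scale, with 4 of the 5 called again and the median of all features going from -0.05 to 0.05, and 3 of 4600 features with a mean of at least 100. Leaving out 1 library gave 0 to 24 calls by limma; where it gave 0, between 362 and 552 features had an unadjusted p under 0.05, and that setting leaves 1 library in a group, which is taken to vary like the others. The causes were not tested. The other settings (size factors from protein-coding genes, pseudocounts of 0.5 and 8 without voom, no minimum) gave 4 to 7 calls. Over 115 named genes and their alternatives, 1626 of 1706 values kept side and sign, 30 lost and 50 gained a call, and 0 changed sign. Of 42 list medians, 25 kept their sign in every alternative run. No paired analysis was possible because the recovered libraries carry no replicate number, so the fit with a replicate block was not run. Depth in hrr25as was lowest, and genes near 20 reads are the least precise.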

Other observations

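Beyond the 5 called features, the z test called 20 more, and the ones described here were chosen after their values were seen. RSB1, which exports sphingoid bases, had 133 and 145 normalised reads in WT condition A and 405 and 460 in condition B, against 20.2 and 25.7 in hrr25as condition A and 280 and 362 in condition B. It was higher in condition B in both strains, with a difference of 2.17 (limma adjusted p = 0.0840). ZNF1, a zinc-cluster transcription factor, had 146 and 157 in WT condition A and 151 and 117 in condition B, against 47.6 and 31.7 in hrr25as condition A and 316 and 199 in condition B, a difference of 2.88 (limma adjusted p = 0.0713). YNL277W-A, an open reading frame of unknown function, differed by 2.95 (limma adjusted p = 0.0530). Among lower differences, ARI1, an aldehyde reductase, differed by -1.38 (limma adjusted p = 0.0866) and YHI9 by -1.35 (limma adjusted p = 0.189). Both went up in WT condition B, YHI9 from 300 and 362 to 940 and 771, while in hrr25as YHI9 had 108 and 82.3 in condition A and 97.8 and 95.9 in condition B.

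Within the cytosolic ribosomal protein genes, RPS9A had the lowest difference at -1.46 (limma adjusted p = 0.113), against -0.51 for RPS9B, and RPL18B the highest at 1.11 (limma adjusted p = 0.113). RPL18B had 958 and 828 normalised reads in WT condition A and 347 and 388 in condition B, and 906 and 1032 in hrr25as condition A and 830 and 891 in condition B. Many genes of this list come in near-identical pairs, and shared reads could be split by the counting.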
